A study of Mus musculus with 6 samples.

Results

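The 10 genes described here are the 3 peroxisome proliferator-activated receptors *Ppara*, *Ppard* and *Pparg*, their known targets *Angptl4*, *Plin2*, *Cpt1a* and *Pdk4*, and the fatty acid oxidation enzymes *Acadl*, *Acadm* and *Hadha*. They were taken by symbol from a table of 30281 gene symbols, and the values of all transcripts of a symbol were summed in each of the 6 libraries. *Angptl4* was selected on its measured values, because it was higher with rapamycin in these same libraries, so its rapamycin values are given as a description with no test. The study measured poly(A) RNA of mouse cells that lack the tuberous sclerosis gene *Tsc2*, whose loss keeps the kinase complex mTORC1 active, and of cells treated with its inhibitor rapamycin. One pair of libraries came from mouse embryonic fibroblasts (MEFs), 1 *Tsc2*-/- p53-/- and 1 *Tsc2*+/+ p53-/-, so p53 was absent from both and the labels give no treatment. The other 4 libraries came from 2 *Tsc2*-null kidney lines, MKOC, labelled as kidney epithelial cells, and TJ, labelled as tumor-derived and taken from a secondary tumor in C57BL6 mice, each untreated (diluent) and after rapamycin at 100 nM for 18 hours in serum-free medium. There was thus 1 library per fibroblast genotype, with no replicate check on any fibroblast difference, and the 2 kidney lines served as the replicates of the rapamycin comparison, with 1 library per line and treatment.

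PPARs are nuclear receptors that pair with retinoid X receptors and switch on genes when fatty acids or related lipids bind them. PPARα and PPARδ are best known for driving fatty acid oxidation in liver, kidney, heart and muscle, and PPARγ for building adipocytes and lipid stores. Fatty acids enter mitochondria through the carnitine shuttle, whose first enzyme is made by *Cpt1a* in most tissues, and are shortened there step by step by acyl-CoA dehydrogenases such as those of *Acadl* and *Acadm* and by the trifunctional protein, whose α subunit is *Hadha*. *Pdk4* makes a kinase that turns off pyruvate dehydrogenase and so spares glucose while fat is burnt, *Plin2* coats lipid droplets, and *Angptl4* is a secreted inhibitor of lipoprotein lipase.

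The libraries held between 22887020 and 37505004 estimated counts. *Tsc2* RNA was present in every library, at 22.6 TPM in *Tsc2*+/+ MEFs, 10.5 in *Tsc2*-/- MEFs, 44.0 and 49.1 in the untreated kidney lines and 19.1 and 19.5 with rapamycin, so the RNA level alone did not mark the null label. Of 10 epithelial markers, 7 were at or above 1 TPM in each kidney library while *Epcam* and *Cldn7* were at or near 0, and of 10 fibroblast markers 8 and 9 were in the *Tsc2*+/+ and *Tsc2*-/- MEFs. The summed epithelial markers lay at 1190 and 1166 TPM in the untreated MKOC and TJ libraries and at 2004 and 2065 TPM with rapamycin, so they moved with the treatment, and at 0.383 and 85.8 TPM in the *Tsc2*+/+ and *Tsc2*-/- MEFs. The fibroblast sum was 3184 and 3120 TPM in these MEFs, and it too was higher with rapamycin, at 59.3 and 89.4 TPM in untreated and treated MKOC and 20.7 and 29.5 TPM in TJ cells. In the kidney libraries most of this sum came from *Dcn* (25.5 and 50.3 TPM in untreated and treated MKOC) and *Fn1* (32.6 and 37.4 TPM). Proximal tubule markers summed to 26.6 and 30.8 TPM in untreated and treated MKOC and 10.8 and 14.4 TPM in TJ cells with *Slc34a1* at 0, and hepatocyte markers to at most 0.232 TPM in any library. Macrophage markers summed to 4.47 and 11.5 TPM in the *Tsc2*+/+ and *Tsc2*-/- MEFs and were higher with rapamycin, at 18.8 and 28.2 TPM in untreated and treated MKOC and 36.0 and 51.1 TPM in TJ cells, with *Ptprc* and *Adgre1* at or near 0. Adipocyte markers summed to 3.39 TPM in *Tsc2*+/+ MEFs, 9.93 in *Tsc2*-/- MEFs and 8.09 to 11.8 in the kidney libraries, with *Cfd* at 0 in all of them and *Plin1* at or near 0. The mitochondrial transcript *mt-Atp8* moved with the treatment as well, from 1.5 to 4.58% of all TPM in MKOC and from 2.95 to 5.14% in TJ cells. The part of these levels in the results below was not tested, and in bulk RNA fewer cells of a type and less RNA per cell cannot be told apart. In the MEFs *mt-Atp8* took 17.5% of all TPM for *Tsc2*+/+ and 4.79% for *Tsc2*-/- cells, and the median TPM ratio over 7377 well expressed genes was 1.31, so fibroblast differences are also given after scaling by this median.

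Promoter windows from the RefSeq table of GRCm38.p6, each running from 250 bases before to 50 bases after a gene start, were on hand for 9 of the 10 genes, in 11 windows, and *Angptl4* had none. The hexamer AGGTCA, the half-site of nuclear receptor elements, was searched on both strands. It was found in 5 windows of 4 genes (*Pparg*, *Cpt1a*, *Plin2* and *Acadm*), against 16.3% of all 32851 windows in that table. Direct repeats of it with 1 base between, the classical PPAR element, were found in none of the 11 windows and in 0.0396% of all windows. The following windows are shown because *Pparg* reads were assigned to transcripts with different starts in different cells and because *Cpt1a* had the largest change of the tested genes among the 10, with the half-site in capitals (AGGTCA, or TGACCT where it lies on the other strand). All 3 are printed on the plus strand, the strand of both genes.
Pparg, first start, chr6:115360894-115361193: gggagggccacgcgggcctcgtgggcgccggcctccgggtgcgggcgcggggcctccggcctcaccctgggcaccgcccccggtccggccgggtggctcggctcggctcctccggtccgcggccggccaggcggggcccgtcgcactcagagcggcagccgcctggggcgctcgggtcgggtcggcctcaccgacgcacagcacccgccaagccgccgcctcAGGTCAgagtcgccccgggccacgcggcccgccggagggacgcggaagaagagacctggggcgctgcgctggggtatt
Pparg, downstream start, chr6:115421816-115422115: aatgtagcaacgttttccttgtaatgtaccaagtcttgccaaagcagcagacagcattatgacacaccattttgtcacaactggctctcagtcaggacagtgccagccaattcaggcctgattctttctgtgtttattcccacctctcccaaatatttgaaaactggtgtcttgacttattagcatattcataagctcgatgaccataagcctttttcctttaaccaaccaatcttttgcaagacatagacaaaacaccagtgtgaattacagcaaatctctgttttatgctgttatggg
Cpt1a, chr19:3323051-3323350: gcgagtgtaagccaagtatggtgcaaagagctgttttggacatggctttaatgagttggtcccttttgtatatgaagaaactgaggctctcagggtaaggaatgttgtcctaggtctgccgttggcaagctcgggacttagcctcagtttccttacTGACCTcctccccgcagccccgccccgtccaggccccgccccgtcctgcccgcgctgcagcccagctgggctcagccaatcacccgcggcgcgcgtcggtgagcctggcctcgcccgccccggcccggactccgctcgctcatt
The half-site lay 28 bases before the RefSeq start in the first *Pparg* window and 94 bases before that in the *Cpt1a* window. In the *Pparg* window it lay downstream of 115360951, where the annotated gene span begins. The downstream *Pparg* window printed above held none. A further *Pparg* window, chr6:115362099-115362398, is not printed and held the half-site 9 bases before its RefSeq start. A match of 6 letters is a description of the window and says nothing about binding in these cells. In GRCm38 the gene spans on the plus strand are chr15:85734983-85802819 for *Ppara*, chr17:28232700-28301474 for *Ppard*, chr6:115360951-115490399 for *Pparg* and chr19:3322334-3385733 for *Cpt1a*. On the minus strand lie *Plin2* at chr4:86648386-86670060, *Acadl* at chr1:66830839-66863277, *Acadm* at chr3:153922357-153944632, *Hadha* at chr5:30118304-30155162 and *Pdk4* at chr6:5483351-5496309.

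**Figure D1:**
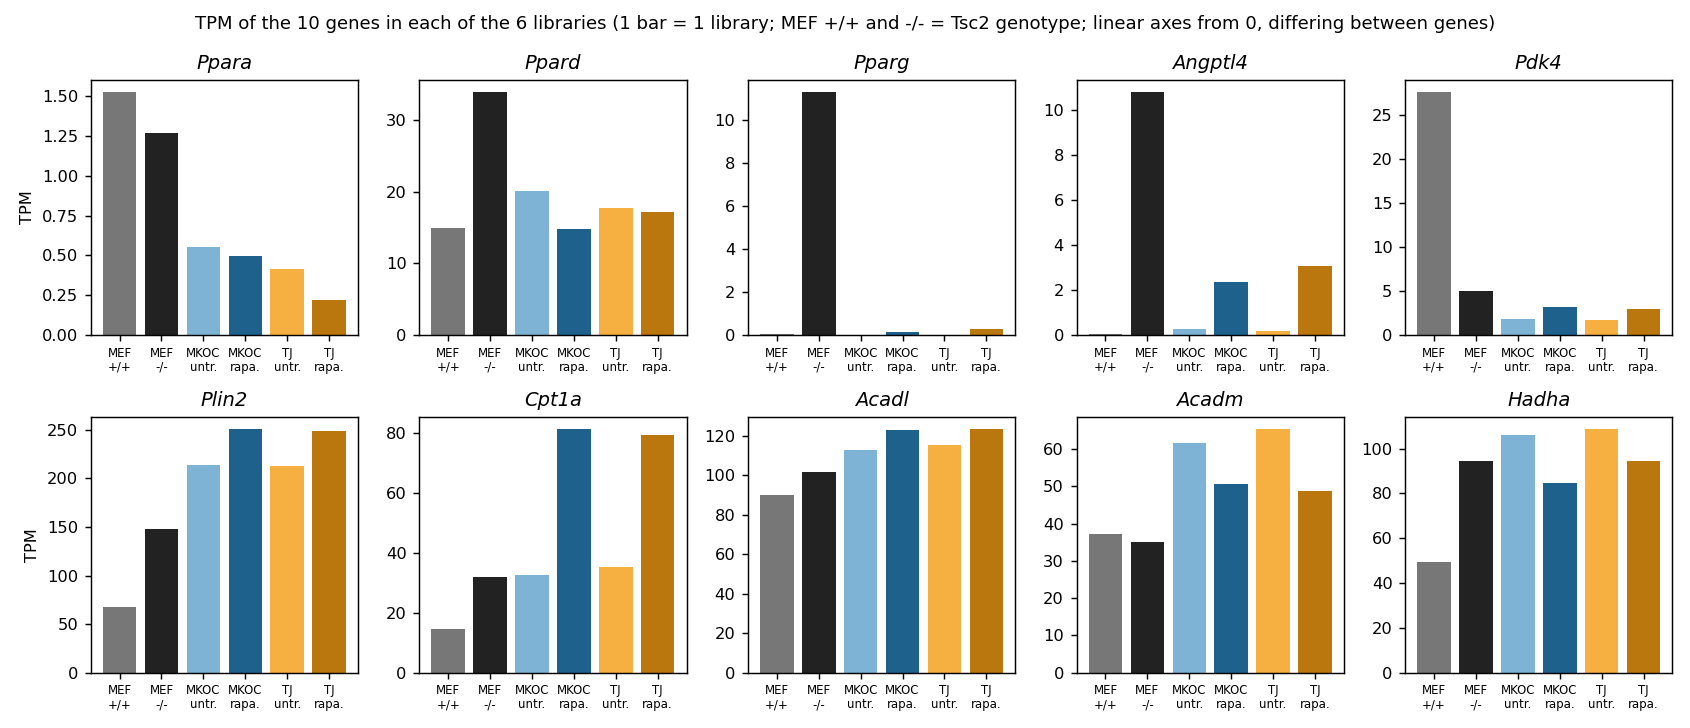
Level of each of the 10 genes in TPM, with 1 panel per gene and 1 bar per library, on linear axes that start at 0 and differ between genes. MEF bars are marked by *Tsc2* genotype (+/+ or -/-) and kidney bars by line and treatment. *Pparg* and *Angptl4* were highest in *Tsc2*-/- MEFs (11.3 and 10.8 TPM), *Pdk4* and *Ppara* in *Tsc2*+/+ MEFs (27.6 and 1.53 TPM), and *Cpt1a* in the rapamycin libraries (81.2 and 79.2 TPM).

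In the kidney lines the main test called the gene of mitochondrial fat entry higher with rapamycin and 2 of the 3 oxidation enzymes lower. The calls of these 2 enzymes and of *Pdk4* did not hold in every alternative test, as given below. *Cpt1a* rose 2.36-fold and *Pdk4* 1.70-fold, *Acadm* and *Hadha* fell by 0.37 and 0.33 on the log2 scale, and *Ppara*, *Ppard*, *Plin2* and *Acadl* did not pass the test (edgeR quasi-likelihood, line as a block, Benjamini-Hochberg adjusted p under 0.05 over 12952 genes). Of the 10 genes, 9 passed the filter on low counts, and *Pparg* did not. Leaving out *Angptl4*, 2 of 8 tested genes were thus higher and 2 lower, against 17.5% of all genes tested higher and 17.4% lower, or 34.9% in either direction. On the CPM scale the rapamycin and untreated libraries did not overlap for 7 of these 8 genes, all but *Ppara*, against 59.3% of all genes tested. The gap was narrow for *Ppard* (34.0 treated and 34.1 untreated CPM in TJ cells) and for *Acadl* (128.6 and 125.2 CPM in TJ cells). Every comparison with rapamycin rests on 4 libraries from 2 lines, and whether the lines responded differently could not be tested because no residual degree of freedom would be left.

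**Figure D2:**
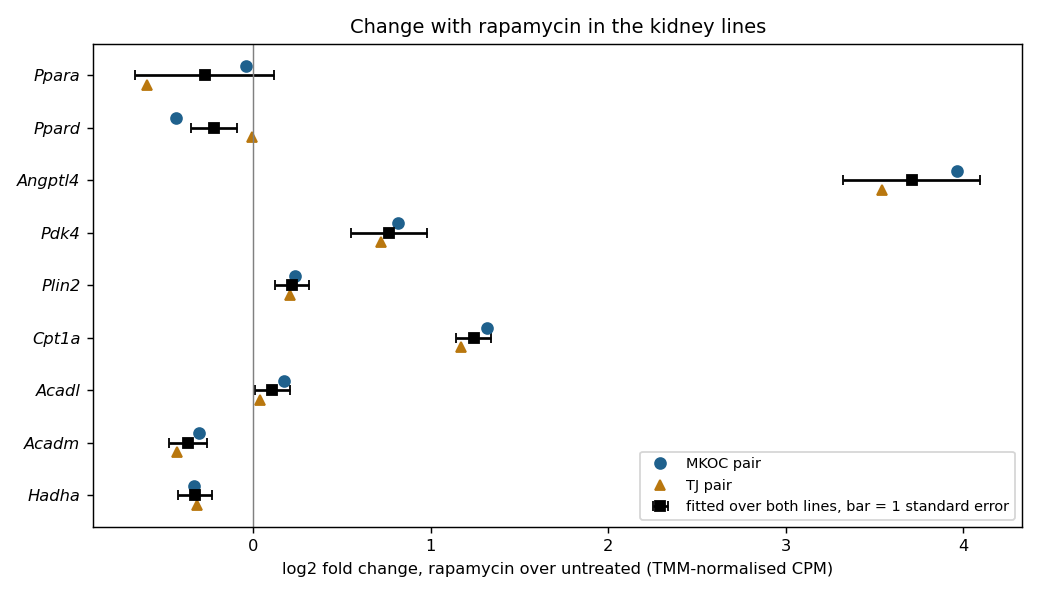
Log2 fold change of TMM-normalised CPM, rapamycin over untreated, for the 9 genes that passed the filter. Circles are the MKOC pair, triangles the TJ pair, and black squares the value fitted over both lines with a bar of 1 standard error, and the vertical line marks 0. *Angptl4*, chosen for its rise in these libraries and drawn only as a description, stood at 3.71 and *Cpt1a* at 1.24, while *Acadm* and *Hadha* lay below 0 in both lines.

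Of the receptors, *Ppard* was the most abundant in every library. *Ppard* encodes the widely expressed PPARδ. Its level was 20.1 TPM in untreated and 14.8 TPM in rapamycin-treated MKOC cells, and 17.7 and 17.1 TPM in TJ cells. The treated library was thus lower in MKOC cells, with a ratio of library shares of 0.759 (95% exact counting interval 0.689 to 0.835), while the ratio in TJ cells was 1.02 (0.933 to 1.12), and this difference between the lines was not tested. Over both lines the log2 fold change was -0.22 ± 0.13 (SE, n = 2 lines, adjusted p = 0.219, edgeR quasi-likelihood test). *Ppara*, the PPAR of liver-type fat burning, was low throughout, at 0.555 and 0.412 TPM in untreated and 0.496 and 0.222 TPM in treated MKOC and TJ cells, from 33, 18, 25 and 12 estimated counts. Its log2 fold change of -0.27 ± 0.39 (adjusted p = 0.625, edgeR quasi-likelihood test) was smaller than its error. In the MEFs *Ppara* lay at 1.53 TPM in *Tsc2*+/+ and 1.27 TPM in *Tsc2*-/- cells, an unscaled ratio of 0.832 whose counting interval of 0.584 to 1.18 included 1. After scaling by the median its log2(TPM + 1) difference was -0.36. *Ppard* lay at 14.9 and 33.9 TPM in the same pair, a ratio of 2.27 (2.11 to 2.44).

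*Pparg* showed the widest range of the 3 receptors. In *Tsc2*-/- MEFs it stood at 11.3 TPM from 293 estimated counts, and in *Tsc2*+/+ MEFs at 0.0402 TPM from 2, a ratio of 281 with a counting interval of 77.2 to 2334. In untreated MKOC and TJ cells it had 0 counts, which allows up to 3 counts, and in the rapamycin libraries it had 4 and 9 counts, or 0.161 and 0.313 TPM. The exact lower 95% counting limit of the treated to untreated ratio was 0.867 in MKOC cells, which is below 1, and 2.01 in TJ cells. These few reads removed *Pparg* from the test by the filter on low counts. With the filter lifted edgeR's quasi-likelihood test gave an adjusted p of 0.0234, while DESeq2 gave it no adjusted p and an unadjusted p of 0.0529.

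The *Pparg* reads of *Tsc2*-/- MEFs came mainly from another transcript than the few reads of the other libraries. In *Tsc2*-/- MEFs 96.2% of the gene's estimated counts (282 of them) were assigned to ENSMUST00000171644, which begins at position 115360951 of chromosome 6, inside the first window printed above, and codes for 475 amino acids. The other coding transcript, ENSMUST00000000450, begins at 115422066 in the downstream window and codes for 505 amino acids, the form with extra residues at its N terminus that is known as PPARγ2. It took 3.77% in *Tsc2*-/- MEFs, or 11 counts, and all of the 2, 4 and 9 counts in *Tsc2*+/+ MEFs and in rapamycin-treated MKOC and TJ cells. Assignments between transcripts that share most exons are estimates.

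*Angptl4*, the gene chosen for its rise, went from 0.255 to 2.37 TPM in MKOC and from 0.174 to 3.08 TPM in TJ cells. These levels come from 6 and 9 estimated counts in the untreated and 73 and 106 in the treated libraries. Both treated libraries lay well above both untreated ones. The ratio of library shares was 16.0 in MKOC and 12.0 in TJ cells, and the fitted log2 fold change was 3.71, or 1.61 on the log2(TPM + 1) scale, which understates changes at such low levels. In the MEFs, which had no rapamycin library, *Angptl4* was at 0.0761 TPM in *Tsc2*+/+ and 10.8 TPM in *Tsc2*-/- cells. These came from 4 and 307 counts, a ratio of 142 (54.8 to 524). The gene was chosen for its rise with rapamycin, but with earlier results of these data known. By level, *Tsc2*-/- MEFs came first, the rapamycin-treated kidney lines next, and the untreated kidney lines and *Tsc2*+/+ MEFs last, with 4 to 9 counts each and so too few to be put in order among themselves.

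Where *Angptl4* was highest, most of its counts were assigned to a transcript that the annotation marks as a target of nonsense-mediated decay. ENSMUST00000173869, with an annotated reading frame of 154 amino acids, took 70.9% in *Tsc2*-/- MEFs, 63.8% in rapamycin-treated MKOC and 55.0% in treated TJ cells. The full-length coding transcript ENSMUST00000002360, of 410 amino acids, took 28.2%, 36.2% and 43.0% in the same libraries. The gene lies at chr17:33773750-33781830 of GRCm38, on the minus strand.

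Over 11435 genes, those most like *Angptl4* in level across the 6 libraries, by Pearson's r of log2(TPM + 1), were *Zfp251* (0.998), *Il10rb* (0.996), *Bmp4* (0.996), *Pld2* (0.993) and *Dctn1* (0.990). *Bmp4*, which encodes a secreted growth factor of the BMP family, went from 4.38 TPM in *Tsc2*+/+ to 48.6 TPM in *Tsc2*-/- MEFs. In the kidney libraries it went from 4.15 to 14 TPM in MKOC and from 4.35 to 14.6 TPM in TJ cells. *Zfp251*, at the head of this order, spanned only 12.7 to 17.3 TPM, since the measure reads the shape of a pattern and not its size. These correlations describe 6 libraries that share lines and treatments.

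*Pdk4*, the pyruvate dehydrogenase kinase, was higher with rapamycin but lower in *Tsc2*-/- than in *Tsc2*+/+ MEFs. Its level went from 1.81 to 3.20 TPM in MKOC and from 1.78 to 2.93 TPM in TJ cells, with no overlap between treated and untreated libraries. The log2 fold change was 0.77 ± 0.21 (adjusted p = 0.0191, edgeR quasi-likelihood test). In the MEFs it was at 27.6 TPM in *Tsc2*+/+ and 4.97 TPM in *Tsc2*-/- cells, a ratio of 0.180 (0.157 to 0.206), or 5.55-fold lower. It was the only one of the 10 genes more than 2-fold lower there.

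*Plin2*, the lipid droplet coat gene, was the most abundant of the 10 in all kidney libraries and in *Tsc2*-/- MEFs. It lay at 213.7 and 213.0 TPM in untreated and 250.7 and 248.7 TPM in treated MKOC and TJ cells. The treated libraries were higher in each line, but the log2 fold change of 0.22 ± 0.095 did not pass the threshold (adjusted p = 0.0993, edgeR quasi-likelihood test, 95% interval 0.01 to 0.43). In the MEFs *Plin2* was at 68.0 and 147.9 TPM, a *Tsc2*-/- to *Tsc2*+/+ ratio of 2.17 (2.07 to 2.28).

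*Cpt1a*, the gate of mitochondrial fat import, had the largest change of the tested genes among the 10. It went from 32.4 to 81.2 TPM in MKOC and from 35.1 to 79.2 TPM in TJ cells. The treated libraries stood far above the untreated ones and close to each other, with a log2 fold change of 1.24 ± 0.0996 (adjusted p = 2.53e-05, edgeR quasi-likelihood test). The call was lost in 1 of 10 alternative tests, without the untreated TJ library and without the line term (adjusted p = 0.0780, log2 fold change 1.29). In the MEFs *Cpt1a* was at 14.5 TPM in *Tsc2*+/+ and 31.8 TPM in *Tsc2*-/- cells, a ratio of 2.20 (2.07 to 2.34).

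Of the 3 enzymes inside the mitochondrion, *Acadm* and *Hadha* were lower with rapamycin and *Acadl* was not called. *Acadm*, the medium-chain acyl-CoA dehydrogenase, went from 61.7 to 50.7 TPM in MKOC and from 65.4 to 48.9 TPM in TJ cells. It fell by 0.37 on the log2 scale (SE 0.106, adjusted p = 0.0225, edgeR quasi-likelihood test). *Hadha* went from 106.1 to 84.8 TPM and from 108.6 to 94.5 TPM and fell by 0.33 (SE 0.095, adjusted p = 0.0232). Both treated libraries of either gene were below both untreated ones. *Acadl*, the long-chain acyl-CoA dehydrogenase, lay at 112.6 and 115.2 TPM untreated and 122.9 and 123.4 TPM treated, a log2 fold change of 0.11 ± 0.0997 (adjusted p = 0.437, 95% interval -0.12 to 0.33, edgeR). The TPM values of *Acadm*, *Hadha* and *Acadl* in the MEFs, *Tsc2*+/+ first, were 37.3 and 35.0, 49.6 and 94.5, and 90.0 and 101.9. Before scaling by the median ratio of 1.31, *Hadha* was thus 1.91-fold higher (1.82 to 2.0) in *Tsc2*-/- cells, and *Acadl* 1.13-fold (1.08 to 1.19). The unscaled *Acadm* ratio of 0.938 had an interval of 0.868 to 1.01. After scaling, the log2(TPM + 1) differences were 0.53 for *Hadha*, -0.21 for *Acadl* and -0.47 for *Acadm*, so the direction of *Acadl* was not settled.

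The calls of *Acadm*, *Hadha* and *Pdk4* did not hold under every test. Without the line as a block their adjusted p-values were 0.0878, 0.0991 and 0.101 (edgeR quasi-likelihood test), and only *Cpt1a* kept its call. With the line kept in the model, DESeq2 did not call *Acadm* (adjusted p = 0.0561) or *Pdk4* (0.116), and limma on log2(TPM + 1) did not call *Hadha* (0.0903) or *Pdk4* (0.0829). With any 1 kidney library left out, and no line term, adjusted p-values ran from 0.153 to 0.341 for *Acadm*, 0.196 to 0.332 for *Hadha* and 0.195 to 0.353 for *Pdk4*, with the direction kept.

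**Figure D3:**
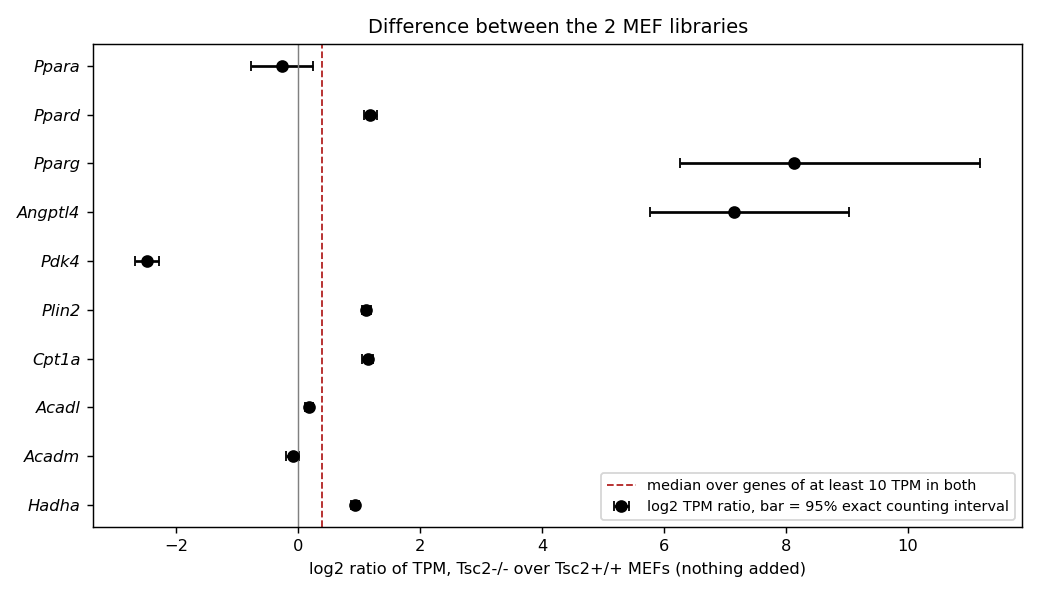
Log2 ratio of TPM, *Tsc2*-/- over *Tsc2*+/+ MEFs, with nothing added, for each of the 10 genes, with 1 library per genotype. Bars are 95% exact counting intervals, the grey line marks 0 and the dashed line the median of genes at or above 10 TPM in both libraries (0.39). *Pparg* at 8.14 and *Angptl4* at 7.15 lay farthest above 0, *Pdk4* at -2.47 farthest below, and *Acadl* at 0.18 lay between 0 and the dashed line.

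In the MEFs the question was which of the genes differed with loss of *Tsc2*. On the log2(TPM + 1) scale, which understates the change of low genes, 6 of the 10 genes differed by at least 2-fold, 5 of them higher in *Tsc2*-/- cells (*Pparg* 3.57, *Angptl4* 3.45, *Ppard* 1.13, *Plin2* 1.11 and *Cpt1a* 1.09) and *Pdk4* lower (-2.26). Among all 30281 symbols 12.8% passed 2-fold, and among the 12771 at or above 1 TPM in a MEF library 30.4%, with 25.2% higher and 5.18% lower. After scaling by the median, 3 of the 10 genes remained past 2-fold, namely *Pparg* (3.21) and *Angptl4* (3.10) higher and *Pdk4* (-2.58) lower, against 15.8% of genes at or above 1 TPM higher, 8.21% lower and 24% in either direction. *Pparg* and *Angptl4* reached 1 TPM only in the *Tsc2*-/- library, where they were high, so nothing is read from the 10 genes' count against these shares. *Hadha* was at 0.92 before and 0.53 after scaling, *Acadm* at -0.09 and -0.47, and *Ppara* at -0.15 and -0.36. The direction of *Acadl* was not settled, at 0.18 before and -0.21 after scaling. The intervals cover counting error only, and with 1 library per genotype no test of the genotypes was possible.

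Averaged over treatment, 0 of 9 tested genes were called between TJ and MKOC (edgeR quasi-likelihood, and 0 with DESeq2), against 8.79% of all 12952 genes, and 1, *Ppara*, had an unadjusted p under 0.05. *Ppara* was lower in TJ by 0.99 on the log2 scale (SE 0.39, adjusted p = 0.164), with a 95% interval of -1.86 to -0.11. The difference of *Cpt1a* was 0.02 (95% interval -0.20 to 0.24) and that of *Angptl4* 0.40 (-0.40 to 1.20).

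Beyond the 10 genes, 8 lists of genes of these pathways were followed, with 103 genes tested when *Angptl4* is left out. With rapamycin 14 were higher and 33 lower, or 45.6% called against 34.9% of all genes tested. Without the 10 genes the counts were 12 higher and 31 lower of 97. The median log2 fold change of the 103 was -0.12, beside 0.02 for all genes. Without the line block edgeR called 18 genes of these lists in place of 47, with fewer calls in each list. In the ANGPTL and lipoprotein lipase list it called 3 in place of 7, and in the textbook PPAR target list 3 in place of 6.

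**Figure D4:**
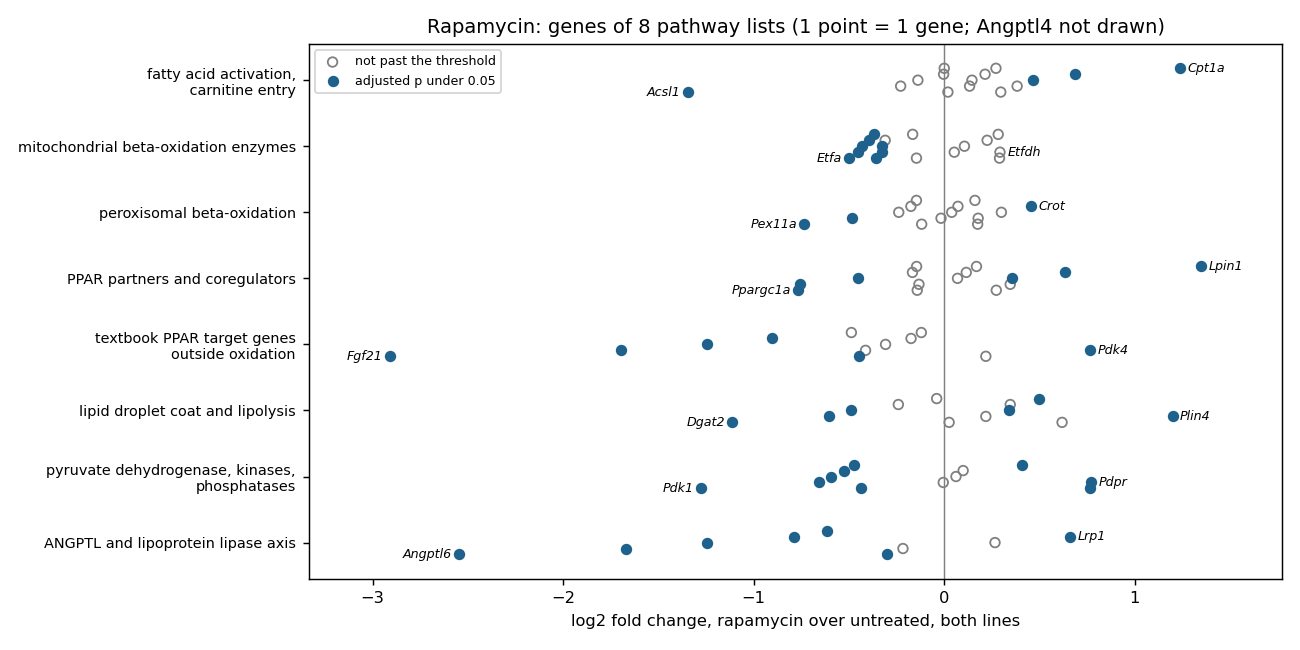
Log2 fold change with rapamycin over both kidney lines for the tested genes of the 8 pathway lists, with 1 point per gene and *Angptl4* not drawn. Filled points had an adjusted p under 0.05 (edgeR), open points did not, and the genes at both ends of each list are named. All 8 filled points of the mitochondrial beta-oxidation list lay below 0.

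Of 17 mitochondrial beta-oxidation enzymes tested, 0 were higher and 8 lower, and at an unadjusted p under 0.05 1 was higher and 9 lower (edgeR). Their median was -0.31. The calls stand against 17.5% higher and 17.4% lower of all genes tested, the background of each list that follows. The largest falls were those of *Etfa* (-0.50, adjusted p = 0.00388), which passes the electrons of fat oxidation to the respiratory chain, *Acaa2* (-0.45, adjusted p = 0.0280), the thiolase of the last step, and *Hadhb* (-0.43, adjusted p = 0.00930, edgeR), the partner subunit of *Hadha*. *Etfa* went from 167.5 to 123.5 TPM in MKOC and from 182.1 to 124.2 TPM in TJ cells. DESeq2 called 4, limma 5 and the fit without the line block 1 of these genes, and each of the 4 edgeR fits that left out 1 kidney library and had no line term called 0, with 3 to 5 at an unadjusted p under 0.05.

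Among the genes that activate fatty acids and carry them into mitochondria, 3 of 15 were higher and 1 lower (median 0.15). *Cpt1a*, *Mlycd* (0.69, adjusted p = 0.0397) and *Slc27a4* (0.47, adjusted p = 0.00625) rose, and *Acsl1*, an acyl-CoA synthetase, fell by 1.35 (adjusted p = 3.14e-05, edgeR). *Mlycd* encodes the enzyme that breaks down malonyl-CoA, the inhibitor of the carnitine shuttle. *Acsl1* went from 21.9 to 8.97 TPM in MKOC and from 20.2 to 7.72 TPM in TJ cells, so its direction was opposite to that of *Cpt1a* in both lines. In the peroxisomal list 1 of 14 was higher (*Crot*, 0.46) and 2 lower (*Pex11a*, -0.74, and *Acox2*, -0.48), with a median of 0.01.

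Of 12 textbook PPAR targets outside the oxidation lists that were tested, *Angptl4* left out, 1 (*Pdk4*) was higher, 5 were lower and 6 were not called, with a median of -0.43. *Fgf21*, a secreted hormone of fasting, fell by 2.91 (adjusted p = 0.000433), the thioesterase gene *Acot2* by 1.70 (adjusted p = 3.03e-05) and *Lpl*, lipoprotein lipase itself, by 1.25 (adjusted p = 0.000444, edgeR). *Fgf21* went from 5.47 to 0.600 TPM in MKOC and from 5.26 to 0.813 TPM in TJ cells. The ANGPTL and lipoprotein lipase list had 1 of 9 higher (*Lrp1*, 0.66) and 6 lower (median -0.61), among them *Angptl6* (-2.55) and the lipoprotein receptor gene *Vldlr* (-1.67, adjusted p = 7.89e-06, edgeR). *Vldlr* stood at 124.9 and 150.7 TPM untreated and 36.5 and 47.3 TPM treated.

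Of 15 receptor partners and coregulators 3 were higher and 3 lower (median 0.07), near the 17.5% and 17.4% of all genes tested. *Lpin1*, a phosphatidate phosphatase that also acts as a coactivator, rose by 1.35 (adjusted p = 7.01e-05), while *Ppargc1a* and *Ppargc1b*, the PGC-1 coactivators, fell by 0.76 (adjusted p = 0.00120) and 0.75 (adjusted p = 0.0273, edgeR). In the lipid droplet list 3 of 12 were higher and 3 lower (median 0.12), led by *Plin4* (1.20), a coat protein like *Plin2*, and by *Dgat2* (-1.11), the last enzyme of triglyceride synthesis. In the pyruvate dehydrogenase list 3 of 12 were higher (*Pdk4*, *Pdpr* and *Pdp1*) and 6 lower (median -0.22). *Pdk4* and its relative *Pdk1* moved apart, since *Pdk1* fell by 1.28 (adjusted p = 3.95e-05, edgeR), from 73.9 to 33.1 TPM in MKOC and from 78.3 to 29.9 TPM in TJ cells.

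**Figure D5:**
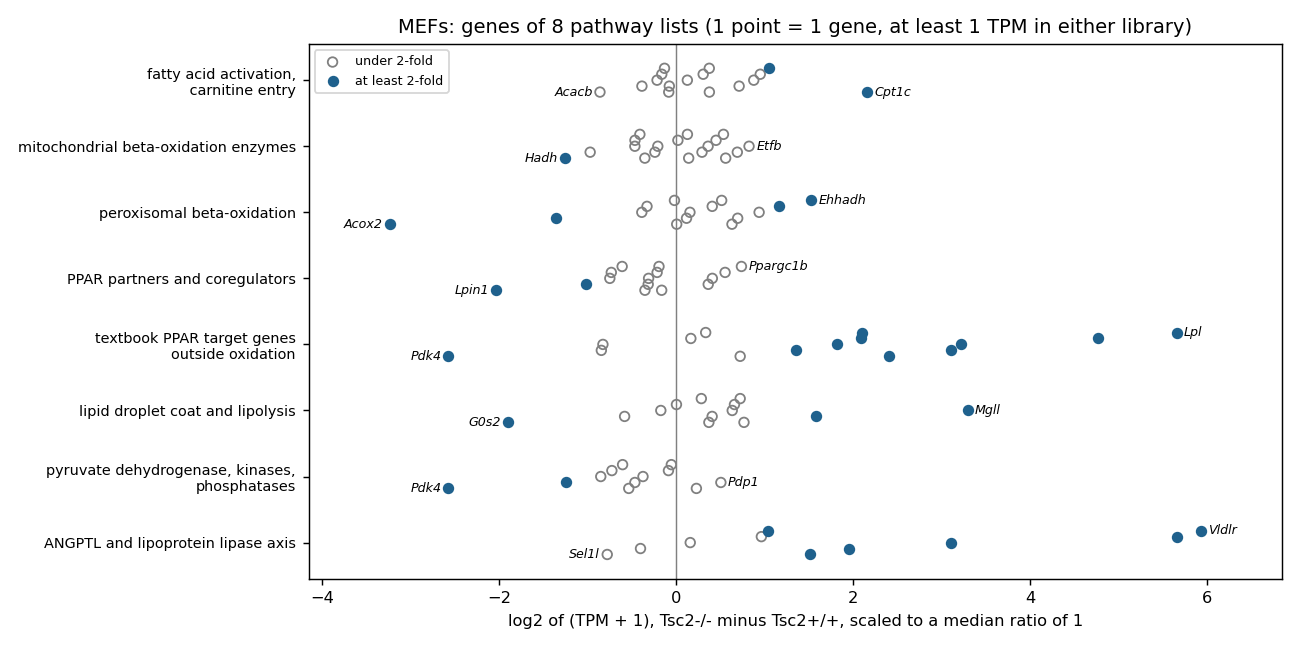
Difference in log2(TPM + 1), *Tsc2*-/- minus *Tsc2*+/+ MEFs, after scaling to a median ratio of 1, for genes of the 8 pathway lists at or above 1 TPM in either MEF library, with 1 library per genotype and no test. Each point is a gene, filled where it differed by at least 2-fold, and the genes at both ends of each list are named. In the list of textbook PPAR targets 9 filled points lay above 0 and 1, *Pdk4*, below, against 15.8% and 8.21% of all genes at or above 1 TPM.

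Of the 25 textbook PPAR targets, 10 were at least 2-fold higher and 1 lower in *Tsc2*-/- than in *Tsc2*+/+ MEFs, 4 differed by less and 10 were under 1 TPM in both libraries. Of the 10 higher genes 5 reached 1 TPM only in the *Tsc2*-/- library, where they were high, and 5 were at or above 1 TPM in both. Among all genes at or above 1 TPM in either library 25.2% were higher and 5.18% lower. After scaling 9 were higher and 1 lower, against 15.8% and 8.21% of those genes. Because genes that reached 1 TPM only where they were high are among them, these counts are no support for a difference of the list. *Lpl* was at 1.74 and 179.7 TPM in *Tsc2*+/+ and *Tsc2*-/- cells, and *Fabp3*, a fatty acid binding protein gene, at 0.0506 TPM from 1 count and 36.2 TPM from 360 counts, a ratio with a counting interval of 128 to 28371. In the ANGPTL and lipoprotein lipase list 10 of 13 genes were at or above 1 TPM in either library. Of these 7 were higher and 0 lower, 3 of the 7 reaching 1 TPM only in the *Tsc2*-/- library, and 6 were higher after scaling. As in the textbook list, these counts are no support for a difference of the list. *Vldlr* had 1 count in *Tsc2*+/+ and 3891 in *Tsc2*-/- MEFs, or 0.00406 and 79.0 TPM.

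The shares of the oxidation lists past 2-fold were not tested against other genes. The 25.2% of genes higher and 5.18% lower, or 15.8% and 8.21% after scaling, stand as their background. These shares cover genes at or above 1 TPM in either MEF library. Of 18 mitochondrial beta-oxidation genes, 2 (*Etfb*, 1.21, and *Acad10*, 1.01) were past 2-fold higher and 0 lower, and after scaling 0 were higher and 1 (*Hadh*) lower. Of 16 activation and carnitine genes 5 were higher before and 2 after scaling. Of 16 peroxisomal genes 15 were at or above 1 TPM in either library, with 4 higher and 1 lower before scaling and 2 and 2 after it. Of the higher genes of both lists 2 and 1 reached 1 TPM only in the *Tsc2*-/- library, where they were high. These counts are thus no support for a difference of the lists. Among the peroxisomal genes *Acox2*, an oxidase that acts on branched-chain substrates, went from 11.5 to 0.429 TPM. Of 18 lipid droplet genes 13 were at or above 1 TPM in either library. Of these 6 were higher and 1 lower, and 2 and 1 after scaling. Of the 6, 1, the lipase gene *Mgll*, reached 1 TPM only in the *Tsc2*-/- library. *Mgll* was at 0.127 and 13.1 TPM in *Tsc2*+/+ and *Tsc2*-/- cells and *Dgat2* at 4.05 and 18.4 TPM. Of 16 partners and coregulators 15 were at or above 1 TPM in either library, with 1 higher and 1, *Lpin1*, lower (11.8 and 2.79 TPM), and 0 and 2 after scaling. Of the 12 pyruvate dehydrogenase genes only *Pdk4* was past 2-fold, and *Pdk4* and *Pdpr* were after scaling.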

How the data were processed

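RNA was read as 100-base paired ends from stranded poly(A) libraries. Per the labels and methods, the authors trimmed reads (Trimmomatic 0.32) and quantified them with Kallisto (version not given in the sources used here). They deposited estimated counts and TPM per transcript under mouse ENSMUST identifiers, which were summed here per symbol. A deposited column of the authors' own fold ratio, 1 column, was not used. Gene positions and transcript types were read here from GENCODE M21 of GRCm38. Transcripts without a symbol took 0.372 to 0.468% of the counts and were left out of library sizes and tests.

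The 10 genes and the gene lists were chosen with earlier results of these data known. Groups came from the labels. Rounded counts of the 4 kidney libraries were tested with edgeR 4.0.16 in R 4.3.3 (filterByExpr, TMM, quasi-likelihood F test, terms for line and treatment), with Benjamini-Hochberg adjustment over 12952 genes at 0.05. Line served as a block because both libraries of a line share its cells, and their deviations from the group means correlated over genes at 0.562. With both terms in the model, p-values rest on how unlike the change was in these 2 lines, with an error that edgeR partly borrows from other genes. They do not measure the spread among further lines. MEF libraries were compared by log2(TPM + 1) and by exact 95% intervals of count ratios, which cover counting error only, with no test. A count of 0 allows up to 3 counts. DESeq2 1.42.0, limma 3.58.1, other scalings and filters, no block, and each library left out were alternatives. Named genes of a list were the 3 largest called changes with rapamycin and the 2 largest MEF differences among genes at or above 5 TPM in a MEF library, and others are named where a count was small; some genes that the rule names are not reported here. The fits were tested on simulated data.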

Additional observations from a re-analysis of the deposited data

How the results depend on the processing

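Without the replicate block (the line term), edgeR called 1275 genes with rapamycin in place of 4526, 1 of the 8 tested members in place of 4, and 18 pathway genes in place of 47. DESeq2 and limma each called 2 members. With each kidney library left out and no line term, 0, 96, 531 and 613 genes, 0 to 1 members and 0 to 10 pathway genes were called. The count of 0 came without the untreated TJ library, where 2688 genes had an unadjusted p under 0.05. Between TJ and MKOC, 1139 genes were called, 1753 with no filter, 603 with DESeq2 and 0 without the treatment term, where 702 had an unadjusted p under 0.05. In the MEFs 3884 genes passed 2-fold with 1 TPM added, 6664 with 0.1 and 2139 with 5, and 3 members in place of 6 passed with median scaling and with CPM. Signs turned for *Ppara* with rapamycin (0.27 without treated TJ, 0.18 without untreated MKOC, both with no line term), for *Cpt1a* between the lines (-0.0094 without the treatment term, -0.053 in the rapamycin pair alone) and for *Acadl* in MEFs (-0.21 with median scaling, -0.18 with CPM). Between the lines the uncalled differences of *Ppard* (0.21) and *Acadl* (-0.033) in the rapamycin pair alone and of *Acadm* (0.044) in the untreated pair alone also had the other sign. The cause was not tested. Leaving out a whole line leaves no residual degree of freedom, so those fits gave values with no test. At depths of 22887020 to 37505004 counts, *Pparg* and untreated *Angptl4* in the kidney lines rest on fewer than 10 counts.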

Other observations

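Some genes of the same pathways had reads in the MEFs and none or almost none in the kidney lines. These were named after their values were seen. *Decr1*, the mitochondrial reductase needed to oxidise polyunsaturated fatty acids, had 724 estimated counts in *Tsc2*+/+ and 657 in *Tsc2*-/- MEFs, or 8.51 and 15.7 TPM, and 0 in all 4 kidney libraries, where 3 counts would have been 0.0537 to 0.0692 TPM. *Vnn1*, which encodes a pantetheinase, had 355 and 1120 counts in the MEFs and 2, 0, 0 and 0 in untreated MKOC, treated MKOC, untreated TJ and treated TJ cells.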
